A study of Sus scrofa with 18 samples.

Results

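The regions described here are H3K27ac peaks that the inner, circular muscle layer of the pig uterus carried in both reproductive states examined and that were not listed for the outer, longitudinal layer. They were defined as H3K27ac peaks of pregnant circular muscle on chromosomes 1 to 18 and X that had a fold enrichment over IgG of at least 4, overlapped a peak of cyclic circular muscle by at least 1 bp, and overlapped no peak of pregnant longitudinal muscle. A total of 3705 regions met this rule, out of 25160 peaks of pregnant circular muscle that passed the same chromosome and fold filters (14.7%, 95% Wilson interval 14.3 to 15.2%). Of the remaining peaks, 17577 (69.9%) overlapped a peak in both other lists, 3577 (14.2%) overlapped neither, and 301 (1.20%) overlapped longitudinal muscle alone. The regions were thus chosen by their H3K27ac peaks in the 3 lists, and their H3K27ac values are descriptions. Gene position and H3K4me3 were not used to choose them.

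The study profiled myometrium from the mesometrial side of the uterus of Yorkshire gilts on day 15, as circular muscle of pregnant gilts (GD15M_CM), longitudinal muscle of pregnant gilts (GD15M_LM) and circular muscle of cyclic gilts (CD15M_CM). Each group had 2 gilts, with H3K4me3, H3K27ac and IgG libraries for each gilt, which makes 18 libraries. The antibody-guided cleavage method CUT&Tag was used, and the deposited peaks were called on the combined reads of the gilts of a group. Histone marks of cyclic longitudinal muscle were not profiled by the study, so absence from the longitudinal layer refers to pregnant gilts only. The layers were separated by dissection after the endometrium had been removed, so every list describes a bulk tissue. The lists hold no value per gilt. No difference between groups could therefore be tested over animals, and the 95% Wilson intervals beside shares reflect counting error alone.

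H3K27ac is an acetyl mark that p300 and CBP place on histone H3 at active promoters and enhancers, whereas H3K4me3 is concentrated at the starts of transcribed genes. A region with H3K27ac and without H3K4me3 is therefore commonly read as a candidate enhancer, and a region with both marks as a candidate promoter. The circular layer adjoins the endometrium, whose glands are formed and maintained with the help of the transcription factors FOXA2 and SOX17, while the longitudinal layer faces the serosa. Both layers consist mainly of smooth muscle, which contracts when calcium activates myosin.

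Peaks were looked up at 8 smooth muscle genes (ACTA2, ACTG2, MYH11, TAGLN, CNN1, DES, MYOCD and SMTN). All 8 had an H3K27ac peak and an H3K4me3 peak within 3 kb in each of the 3 groups, and none of the 8 held a circular-muscle-only region. This does not check the tissue label, since 73.3 to 76.0% of protein-coding genes had a peak in each list. The 3 macrophage markers CSF1R, CD68 and SPI1 also had both marks in every group. The 3 H3K27ac lists differed in length, with 79877 peaks in GD15M_CM, 82037 in CD15M_CM and 57010 in GD15M_LM. The H3K4me3 lists were closer, with 33599, 36331 and 31910 peaks in the same order. When the H3K27ac lists were trimmed to equal length by −log10 p, 2627 regions (10.4%) met the rule. The absence of a listed peak is not an absence of acetylation, since a lower signal or a shallower pool of reads also leaves a region out of a list. In bulk tissue, fewer cells that carry a mark and less of the mark per cell cannot be told apart.

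The regions lay between the other main classes of pregnant circular muscle peaks in length and strength. Their median length was 614 bp (quartiles 410 and 921 bp), against 1450 bp for the peaks found in all 3 lists and 437 bp for those found in GD15M_CM alone. Their median fold enrichment in GD15M_CM was 4.54, against 5.08 for the peaks in all 3 lists and 4.36 for those in GD15M_CM alone, and the highest was 7.80. The share of peaks that met the rule fell with fold enrichment. It was 20.2% (1788 of 8849) for peaks of fold 4 to 4.5, 13.8% for peaks of fold 5 to 5.5, and 0.927% (20 of 2157, 0.601 to 1.43%) for peaks of fold 7 and over.

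**Figure D1:**
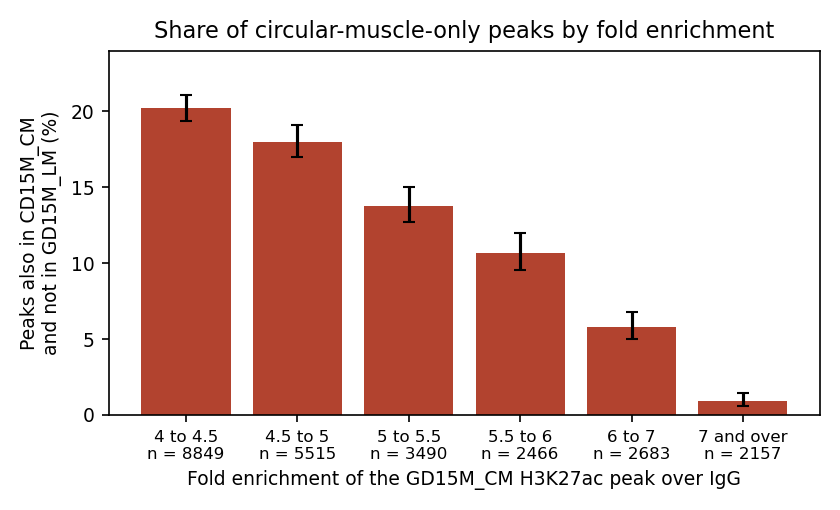
Share of GD15M_CM H3K27ac peaks that also overlapped a CD15M_CM peak and no GD15M_LM peak (vertical axis, %), by fold enrichment of the peak over IgG (horizontal axis, with the number of peaks in each interval). Error bars are 95% Wilson intervals. The share falls from 20.2% in the lowest interval to 0.927% in the highest.

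In cyclic circular muscle the same regions had a median fold enrichment of 3.69, and peaks of all 3 lists had 4.83. Since fold enrichments of separately called lists share no common scale, each value was also expressed as a percentile within its own list, from 0 for no peak to 100 for the highest. The median percentile was 79.9 in GD15M_CM, where the rule sets a floor of 68.4, and 56.4 in CD15M_CM, where the rule asks only for a peak. The cyclic percentile was the lower value at 3072 regions (82.9%), against 62.1% of peaks in all 3 lists. A fold enrichment of at least 4 in cyclic muscle as well was held by 1393 regions (37.6%).

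The nearest longitudinal H3K27ac peak lay a median of 3068 bp away (quartiles 801 and 11323 bp). At 1099 regions (29.7%) it lay within 1 kb, so that a part of the set flanks acetylated sites of longitudinal muscle, and the largest gap was 1327126 bp. The value just inside the threshold, a fold of 4.00036, was shared by 93 regions, which included 2 sites in the gene body of ESR1, the oestrogen receptor alpha gene. The peaks of the same pattern just outside it lay in FLOT1 (3.99894) and WTIP (3.99891).

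Circular-muscle-only regions lay mainly within gene bodies, away from gene ends. RefSeq gene models of the Sscrofa11.1 assembly were used without strand, so that a gene end here is either the start or the 3′ end. Of the 3705 regions, 936 (25.3%, 23.9 to 26.7%) were situated 3 kb or less from a gene end, 2193 (59.2%, 57.6 to 60.8%) lay farther inside a gene body, and 576 (15.5%) lay outside genes. For the 17577 peaks in all 3 lists these shares were 59.7%, 30.7% and 9.55%. The median distance to a gene end was 10534 bp for the regions and 727 bp for peaks in all 3 lists. Whether a peak inside a gene body lay in an exon or an intron was not analysed here.

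The contrast was smaller, and of the same direction, among peaks of like length or like strength. Among peaks from 500 bp to under 1 kb, 25.4% (23.3 to 27.6%) of the regions and 41.0% (39.5 to 42.5%) of the peaks in all 3 lists lay at a gene end. Among peaks of fold 4 to under 5, the shares were 25.4% and 49.2%. The peaks found in GD15M_CM alone were placed much like the circular-muscle-only regions, with 21.0% at gene ends and 59.5% in gene bodies. The nearest gene was protein-coding for 3198 regions (86.3%) and a long non-coding RNA for 432 (11.7%).

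H3K4me3 was found at a minority of the regions, and less often in longitudinal than in circular muscle. A peak of H3K4me3 overlapped 1066 regions in GD15M_CM (28.8%, 27.3 to 30.3%), 1099 in CD15M_CM (29.7%, 28.2 to 31.2%) and 740 in GD15M_LM (20.0%, 18.7 to 21.3%). Over all 25160 peaks that passed the filters, the shares were 56.8%, 57.9% and 56.6%. At peaks in all 3 lists they were 70.9%, 73.4% and 74.5%, with the highest share in longitudinal muscle. At peaks found in GD15M_CM alone they were 18.7%, 13.6% and 9.28%. Low shares, lowest in longitudinal muscle, are therefore not particular to the regions. No H3K4me3 peak of any group overlapped 2439 regions (65.8%), against 21.5% of peaks in all 3 lists and 78.6% of peaks in GD15M_CM alone.

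**Figure D2:**
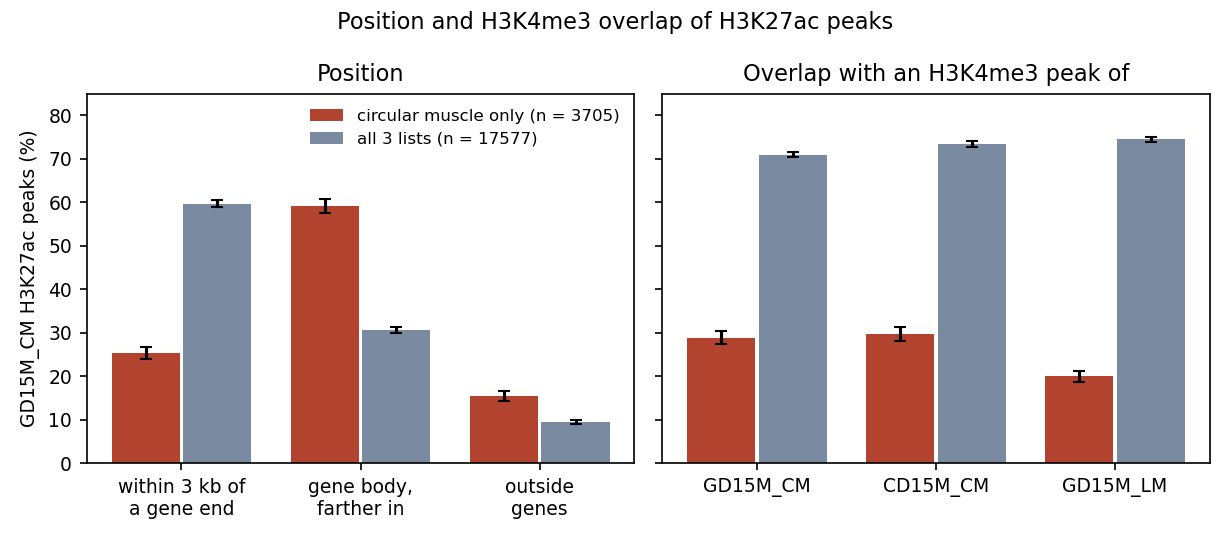
Position against RefSeq genes (left) and overlap with H3K4me3 peaks of each group (right) for H3K27ac peaks of circular muscle only and for peaks in all 3 H3K27ac lists, as the percentage of GD15M_CM peaks of fold 4 and over with 95% Wilson intervals. Circular-muscle-only regions lie in gene bodies in 59.2% of cases, and their H3K4me3 share is lowest in GD15M_LM (20.0%).

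At a part of the regions the second mark was also listed for circular muscle only. H3K4me3 peaks of both circular groups and none of longitudinal muscle overlapped 264 regions (7.13%, 6.34 to 8.0%), compared with 231 (1.31%) of the peaks in all 3 lists and 2.59% of all filtered peaks. The opposite pattern, H3K4me3 in longitudinal muscle alone, was found at 24 regions (0.648%), compared with 3.24% of the peaks in all 3 lists. The H3K4me3 peaks at the 264 regions were of middling rank, with median percentiles of 47.1 in GD15M_CM and 48.2 in CD15M_CM. At regions with H3K4me3 in all 3 groups these medians were 72.0 and 77.2. As for H3K27ac, the absence of a listed H3K4me3 peak is not an absence of the mark. Of the 923 regions with H3K4me3 in both circular groups, 264 (28.6%, 25.8 to 31.6%) lacked it in GD15M_LM, and at peaks in all 3 lists 231 of 12146 did (1.9%). The share was 37.3% (152 of 407, 32.8 to 42.1%) at peaks found in GD15M_CM alone, so it is not particular to the regions. Within peaks from 500 bp to under 1 kb the shares of the regions and of the peaks in all 3 lists were 31.1% and 3.23%, and within fold 4 to under 5 they were 25.8% and 2.82%. The H3K4me3 lists come from other libraries than the H3K27ac lists, although the gilts and their IgG control are those of the same group.

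The pattern was found both at and away from gene ends. Near gene ends, 65.8% of the regions overlapped H3K4me3 in GD15M_CM, 67.6% in CD15M_CM and 53.7% in GD15M_LM, and 113 of 936 (12.1%) had it in circular muscle only. In gene bodies the shares were 16.1%, 17% and 8.30%, with 126 of 2193 (5.75%) in circular muscle only. Outside genes they were 16.7%, 16.3% and 9.55%, with 25 of 576 (4.34%) in circular muscle only.

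At 659 regions (17.8%) all 3 groups had an H3K4me3 peak, and there the longitudinal peak tended to rank lower. The median H3K4me3 percentile was 72.0 in GD15M_CM, 77.2 in CD15M_CM and 65.1 in GD15M_LM. At the 11915 peaks in all 3 H3K27ac lists that had the mark in all groups, the medians were 82.4, 82.9 and 80.4. Longitudinal muscle held the lowest of the 3 percentiles at 353 of the 659 regions (53.6%, 49.7 to 57.3%) and the highest at 143 (21.7%). Its percentile was the lowest at 41.4% of the peaks in all 3 lists. Neighbouring regions can overlap the same H3K4me3 peak, so the regions are not independent, and the interval does not allow for this.

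**Figure D3:**
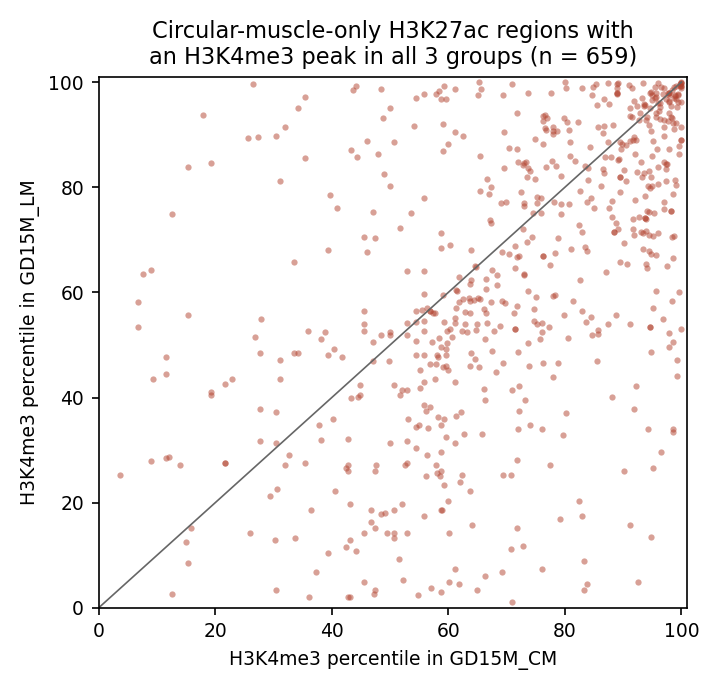
H3K4me3 percentile in GD15M_LM (vertical axis) against that in GD15M_CM (horizontal axis) at the 659 circular-muscle-only H3K27ac regions with an H3K4me3 peak in all 3 groups. Each point is 1 region and the line marks equal percentiles; medians are 72.0 in GD15M_CM and 65.1 in GD15M_LM, and points lie on both sides of the line.

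The regions of highest fold enrichment lay next to genes of several functions. The region in MECOM, which encodes a zinc finger transcription factor (chr13:107817800-107818524), had a fold of 7.80 in GD15M_CM and 3.55 in CD15M_CM, and the nearest longitudinal peak was 95.1 kb away. Its H3K4me3 percentiles were 96.9, 90.4 and 54.9 in GD15M_CM, CD15M_CM and GD15M_LM. Equal folds of 7.80 were found for regions in GIT2, a GTPase-activating protein, and in PRDM2, a zinc finger protein with a PR domain. The GIT2 region lay 0.723 kb from a longitudinal peak and had H3K4me3 in all 3 groups, with percentiles of 72.0, 76.4 and 34.0. The PRDM2 region had H3K4me3 in none.

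A region in STX18, a syntaxin of the endoplasmic reticulum (chr8:5942693-5946432), followed with a fold of 7.75 and H3K4me3 in circular muscle only. It lay 0.671 kb from a longitudinal H3K27ac peak. Next came regions in SNTB1 at 7.63, in DIAPH3 at 7.61 and in DIP2B at 7.61, none of which overlapped H3K4me3. SNTB1 encodes beta-1-syntrophin of the dystrophin complex and DIAPH3 a formin that nucleates actin filaments. The DIAPH3 region (chr11:32582103-32583282) had a fold of 4.74 in CD15M_CM and no longitudinal peak for 674 kb. A further region lay 14.6 kb from PAWR, a proapoptotic regulator, with a fold of 7.42 and H3K4me3 in GD15M_CM alone.

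A region over HOXA2 was also among the strongest (chr18:45468515-45471549). HOX genes encode the homeodomain factors that give position along the body axis and the reproductive tract. The region had an H3K27ac fold of 7.61 in GD15M_CM and 3.63 in CD15M_CM. The H3K4me3 peaks over it had folds of 30.1, 18.5 and 4.11 in GD15M_CM, CD15M_CM and GD15M_LM, which correspond to percentiles of 98.6, 80.2 and 33.5.

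Other HOX genes were then examined, after this region had been seen. Of the 36 placed protein-coding HOX genes, 7 had a circular-muscle-only region within 3 kb (19.4%, beside 9.96% of all protein-coding genes), and these 7 shared 14 regions. The genes of a cluster lie close together and share regions. They were HOXA2, HOXA3, HOXA4 and HOXA5 of the HOXA cluster and HOXB3, HOXB7 and HOXB8 of the HOXB cluster. None of the 9 HOXC or 8 HOXD genes had a region. The largest region of the whole set, 5175 bp long, lay at HOXB3 (chr12:24822267-24827441), with an H3K27ac fold of 6.69 in GD15M_CM and 5.88 in CD15M_CM. H3K4me3 peaks overlapped it in GD15M_CM (fold 9.28) and CD15M_CM (fold 28.0) and not in GD15M_LM. A neighbouring region at chr12:24804235-24805514 had H3K4me3 folds of 22.4 and 18.3 in the circular groups and again no longitudinal peak. A further HOXB3 region at chr12:24829558-24830437 had H3K4me3 in every group, with folds of 28.1, 28.0 and 23.9 in GD15M_CM, CD15M_CM and GD15M_LM. At HOXB8 longitudinal H3K4me3 was present, with folds of 19.4, 31.5 and 15.4 in the same order.

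The other regions of highest fold with H3K4me3 in circular muscle only lay in MBNL2, a splicing regulator (fold 6.85), 0.398 kb from LMBR1L (6.85), and 89.3 kb from CTGF, a matricellular growth factor (7.04). The H3K4me3 fold at the latter region was 15.3 in GD15M_CM and 7.11 in CD15M_CM. Among regions with the mark in all 3 groups, a region 0.784 kb from the non-coding gene LOC110256668 and within 3 kb of ATP2A2, the calcium pump gene of the sarcoplasmic reticulum, had an H3K27ac fold of 7.04 in GD15M_CM and 9.38 in CD15M_CM (chr14:31672297-31673516). It lay only 0.330 kb from a longitudinal H3K27ac peak, and its H3K4me3 percentiles were 98.6, 97.6 and 78.8. A region of the same fold in LOC100621751 had percentiles of 99.3, 94.4 and 96.3.

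Of 28073 RefSeq genes on these chromosomes, 2293 had a region in the gene or within 3 kb (8.17%), and 1940 of 19484 protein-coding genes did (9.96%). A single region was found at 1655 genes, 2 or more at 638 and 5 or more at 85. Of the 3129 regions in or near genes, 2760 belonged to a gene that also had a peak of all 3 lists. Regions less than 50 kb apart formed 2323 runs, of which 1626 were single regions and 89 held 5 or more. The longest run had 16 regions over 241 kb at JAZF1 (chr18:44390912-44631838), a zinc finger gene rearranged in endometrial stromal tumours. Runs of 15 regions lay at ZNRF3 and KREMEN1, both inhibitors of Wnt signalling, and at JARID2, a subunit of Polycomb repressive complex 2. By chromosome, the share of filtered peaks that met the rule ranged from 10.3% (197 of 1920, 8.98 to 11.7%) on chromosome 2 to 19.9% (122 of 612, 17 to 23.3%) on chromosome 11.

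The 11 genes with most regions were 66.9 to 372 kb long, and a long gene has more room for peaks. AKAP13, an anchoring protein that activates RhoA, and JARID2 had 15 regions each. GNAQ, the G protein alpha subunit that couples contractile receptors to phospholipase C, and JAZF1 had 14. NEDD4L, a ubiquitin ligase, PITPNC1, a phosphatidylinositol transfer protein, SLC38A1, a glutamine transporter, and SNTB1 had 12. FNDC3B had 11, and the kinase gene MAP3K20 and ZNRF3 had 10. Per length SLC38A1 stood first among these 11 genes, with 16.5 regions per 100 kb of gene and window, and the others had 3.14 to 6.44.

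The acetylated length in these genes, counted over every H3K27ac peak of any fold, was lowest in longitudinal muscle in each of the 11. In SNTB1, 87 peaks covered 53.5 kb in GD15M_CM, 42 covered 26.4 kb in CD15M_CM and 5 covered 4.97 kb in GD15M_LM. In PITPNC1 the lengths were 52.3, 15.9 and 3.53 kb, in NEDD4L 60.4, 37.7 and 8.86 kb, and in ZNRF3 40.4, 38.1 and 8.59 kb. AKAP13 was the closest to even, with 60.2 kb in GD15M_CM and 33.1 kb in GD15M_LM. Cyclic muscle was near pregnant circular muscle in AKAP13, GNAQ, ZNRF3, MAP3K20 and FNDC3B, and well below it in SNTB1 and PITPNC1. These genes were ranked on the same H3K27ac lists, so their lengths describe the choice. Their strongest H3K4me3 peak, which the choice did not use, was high in all 3 groups for SNTB1, with percentiles of 99.2, 91.9 and 89.7 in GD15M_CM, CD15M_CM and GD15M_LM. In GNAQ those percentiles were 94.6, 84.2 and 99.8. All 11 genes had an H3K4me3 peak in each of the 3 groups.

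Genes of the muscle programme carried circular-muscle-only regions inside genes that were acetylated in every group. Of 30 smooth muscle contractile genes, 6 had a region (20.0%), beside 9.96% of protein-coding genes, and all 6 also had a longitudinal H3K27ac peak within 3 kb. CALD1, which encodes the actin-binding protein caldesmon, had 6 regions with GD15M_CM folds from 4.16 to 5.12, all in the gene body and between 0.124 and 3.57 kb from a longitudinal peak. The CALD1 region at chr18:14446337-14446762 overlapped H3K4me3 in GD15M_LM alone (fold 23.4, percentile 86.6), and the other 5 overlapped none. TPM1, alpha-tropomyosin, had 2, and the stronger, at 5.18, overlapped H3K4me3 in all 3 groups with percentiles of 97.0, 98.5 and 77.2. SYNPO2, an actin-bundling protein, had 2, and PPP1R12B, a regulatory subunit of myosin phosphatase, and the adhesion protein gene LPP had 1 each.

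Among 23 muscle transcription regulators, 4 genes held 12 regions (17.4% of genes). Each of the 4 genes had a longitudinal H3K27ac peak in the gene or within 3 kb. TEAD1, the DNA-binding partner of YAP, had 7 regions of fold 4.00 to 5.0, none of which overlapped H3K4me3. NR2F2, an orphan nuclear receptor, and GATA2, a zinc finger factor, had 1 each. The NR2F2 region lay 0.609 kb from a longitudinal peak and had H3K4me3 percentiles of 72.0, 95.9 and 84.7 in GD15M_CM, CD15M_CM and GD15M_LM. The GATA2 region lay 0.269 kb from a longitudinal peak and overlapped no H3K4me3 peak.

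Calcium handling genes gave 12 regions in 5 of 25 genes (20.0%). Besides ATP2A2 these were STIM1, the calcium sensor of the endoplasmic reticulum, with 4 regions of fold 4.17 to 4.77, and KCNMA1, the large-conductance potassium channel that dampens contraction, with 5 of fold 4.00 to 4.37. The plasma membrane calcium pump gene ATP2B4 had 1 region of fold 5.48, and CACNA1D, a calcium channel subunit, had 1 of fold 4.14. Apart from the ATP2A2 region, none of the 12 overlapped H3K4me3 in any group.

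The hormone and prostaglandin list had regions in 4 of 24 genes (16.7%). ESR1 had 9 regions of fold 4.00 to 5.70, all in its gene body and between 1.40 and 81.9 kb from a longitudinal peak. A cyclic H3K4me3 peak (fold 6.22) overlapped 2 of them, and no other H3K4me3 peak overlapped any of the 9. FKBP5, a glucocorticoid- and progesterone-induced co-chaperone, had 3 regions, the strongest at 5.31. NR3C1, the glucocorticoid receptor, had 1 of fold 5.12 that lay 37.8 kb from a longitudinal peak, and PGR, the progesterone receptor, had 1 of fold 4.36. In the stroma and fibroblast list 3 of 25 genes had regions (12%), with 7 in FOXO1, a factor of decidual differentiation, and 1 each in IGF1 and TCF4.

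At 6 of the 9 gland and epithelial genes with a region, the longitudinal H3K27ac list had no peak in the gene or within 3 kb. Of 17 placed uterine gland genes, 3 had a region (17.6%), and 2 of these, FOXA2 and SOX17, lacked such a peak. Of 25 epithelial genes, 6 had a region (24%), and 4 of them (GRHL2, KRT18, RAB25 and EHF) lacked a longitudinal peak. With a fold of at least 5, 1 epithelial and 2 gland genes had a region, and these 3 lacked a longitudinal peak. With a fold of at least 3, 14 epithelial and 4 gland genes had a region, of which 6 and 3 lacked one. Of the 2293 RefSeq genes with a region, 175 lacked a longitudinal peak, and of the 1940 protein-coding genes with a region, 87 did. As shares of all genes, with or without a region, these are 0.623% and 0.447%. This count uses the longitudinal H3K27ac list that also defined the regions and is given as a description.

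FOXA2, the forkhead factor of uterine glands, had 2 regions in the gene or within 3 kb. The region at chr17:29995263-29997088 lay beside FOXA2, outside the gene, and overlapped the end of the neighbouring gene LOC110257410. It had an H3K27ac fold of 5.47 in GD15M_CM and 3.58 in CD15M_CM, and the nearest longitudinal peak was 89.8 kb away. Its H3K4me3 folds were 17.4 in GD15M_CM and 13.8 in CD15M_CM, with no peak in GD15M_LM. The region at chr17:29997829-30001792, 3964 bp long, overlapped FOXA2 itself. It had H3K27ac folds of 4.30 and 2.63 and H3K4me3 folds of 24.8, 13.8 and 9.29 in GD15M_CM, CD15M_CM and GD15M_LM. Longitudinal muscle thus held some H3K4me3 at FOXA2, at a percentile of 60.3, beside 95.6 and 71.9 in the circular groups.

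SOX17, an HMG-box factor that acts with FOXA2 in uterine glands and is also found in endothelium, had 2 regions within 3 kb. The main region covered its gene end (chr4:76855221-76857531) with H3K27ac folds of 6.07 in GD15M_CM and 4.21 in CD15M_CM, 56.4 kb from the nearest longitudinal peak. H3K4me3 overlapped it with folds of 23.3, 22.2 and 11.7, and percentiles of 94.1, 86.5 and 64.6. The region at chr4:76851988-76852311 had H3K4me3 in the circular groups only. The remaining gland gene, ACP5, which encodes uteroferrin, had a region of fold 4.35 that lay 2.31 kb from the gene and 2.47 kb from a longitudinal peak.

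GRHL2, a grainyhead factor of epithelial identity, had a region of fold 6.16 in GD15M_CM and 2.84 in CD15M_CM in its gene body (chr4:35417375-35419123), 143 kb from any longitudinal peak. It had another at its gene end (chr4:35562211-35563890) with folds of 4.09 and 4.11, where H3K4me3 percentiles were 82.9, 77.5 and 56.4. KRT18, the keratin of simple epithelia, was overlapped by a region of fold 4.82 in GD15M_CM and 3.37 in CD15M_CM, with H3K4me3 folds of 13.3, 22.9 and 8.68. The RAB25 region had folds of 4.52 and 3.57, and that of EHF, an ETS factor of epithelia, 4.14 and 3.86 with H3K4me3 in circular muscle only. RAB25 encodes a small GTPase of epithelial vesicle transport. Regions were also found at the tight junction genes CLDN3 (4.30) and CLDN7 (4.30), which had a longitudinal peak 1.91 and 1.5 kb away. At CLDN7 the H3K4me3 folds were 35.4, 25.3 and 9.19.

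**Figure D4:**
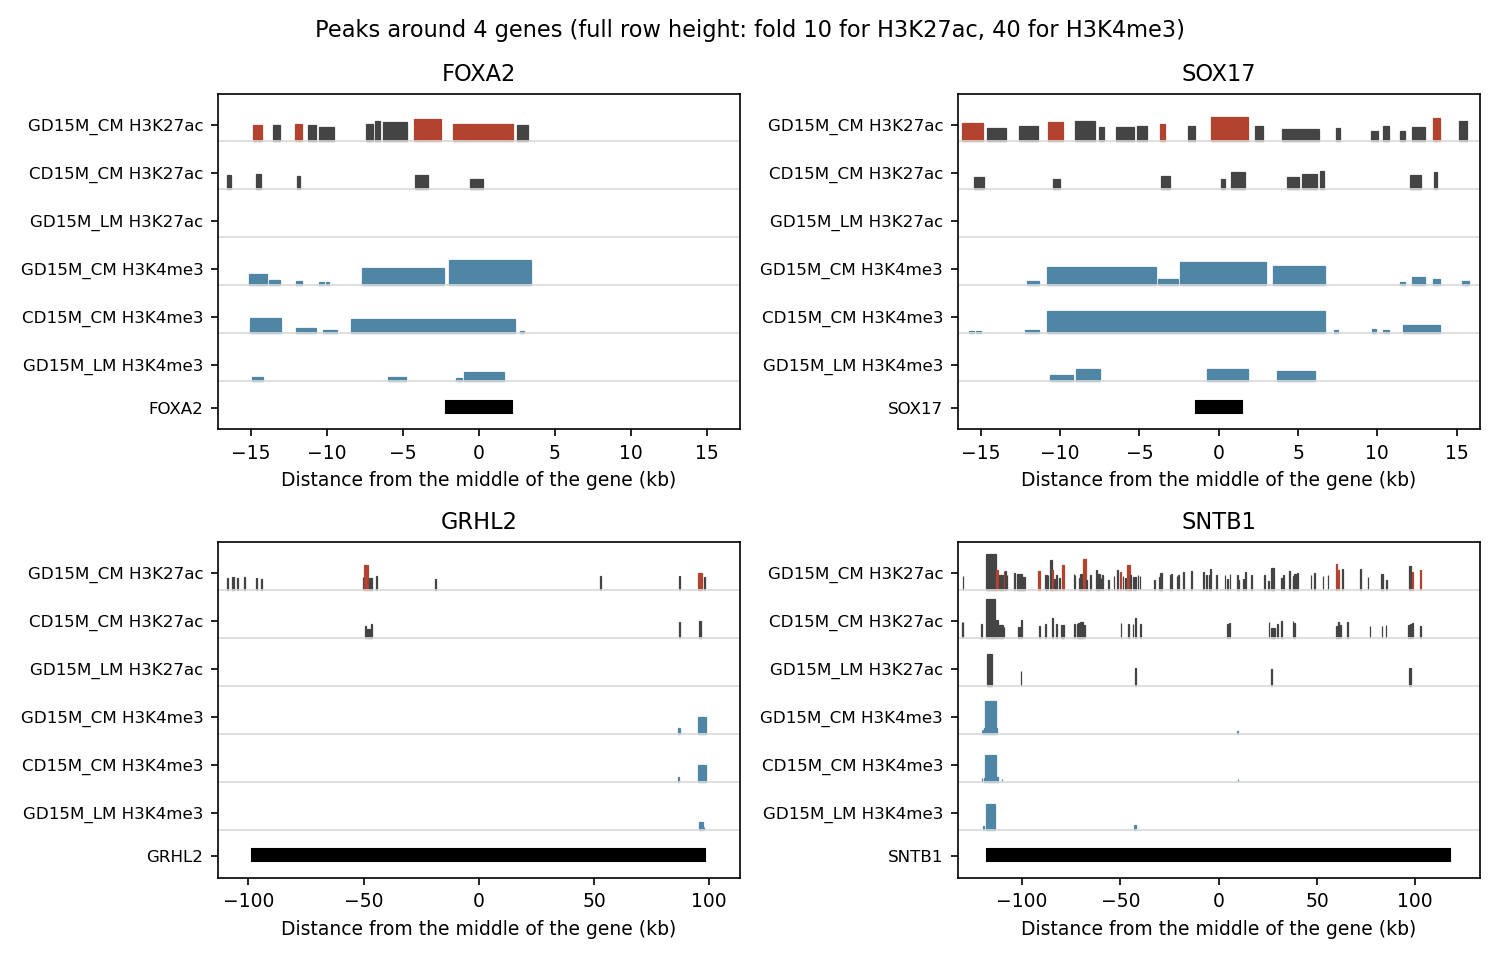
Peaks around FOXA2, SOX17, GRHL2 and SNTB1 in the 6 lists; the horizontal axis is distance from the middle of the gene in kb, the height of each block is its fold enrichment (full row height 10 for H3K27ac and 40 for H3K4me3), and the black bar is the gene. H3K27ac peaks are dark grey, circular-muscle-only regions are red, and H3K4me3 peaks are blue. No GD15M_LM H3K27ac peak lies in the windows of the first 3 genes, and 5 lie in SNTB1 or within 3 kb of it.

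The gland and epithelium lists as a whole, region or no region, had fewer genes with an H3K27ac peak in longitudinal muscle, and their H3K4me3 counts differed less. An H3K27ac peak was present at 13 of 17 gland genes in GD15M_CM, 12 in CD15M_CM and 6 in GD15M_LM, where the median gene had none. The median percentile of each gene's strongest peak, with 0 for a gene without a peak, was 54.6, 52.6 and 0. H3K4me3 was present at 13, 11 and 10 gland genes, with median percentiles of 50.2, 48.2 and 21.9. For the 25 epithelial genes H3K27ac was present at 25, 24 and 17 (median percentiles 76.1, 66.9 and 22.7), and H3K4me3 at 23, 24 and 22 (75.2, 71.9 and 55.6). Among the defining markers, FOXA2, SOX17, KRT18 and KRT19 had no longitudinal H3K27ac peak, whereas the other 7 of the 11 placed markers, MUC1, EPCAM, CDH1 and KRT8 among them, had one. The background share of protein-coding genes was 74.1%, 76.0% and 73.3% for H3K27ac and 74.0%, 75.7% and 74.9% for H3K4me3, in the same order. H3K27ac peaks of any fold in both circular groups and none in longitudinal muscle were found at 5 gland and 7 epithelial genes, beside 688 of all RefSeq genes (2.45%) and 0 of the smooth muscle list.

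The smooth muscle list went the other way in part. An H3K27ac peak was present at 29, 30 and 30 of its 30 genes, with median percentiles of 88.6 in GD15M_CM, 94.2 in CD15M_CM and 93.5 in GD15M_LM. The H3K4me3 percentiles of these genes were 75.5, 85.4 and 91.0, lowest in pregnant circular muscle and highest in longitudinal muscle. The same order held in the muscle regulator, calcium, hormone and stroma lists, so it is not particular to contractile genes. The part that gland or epithelial cells in the dissected circular layer have in the regions was not tested.

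**Figure D5:**
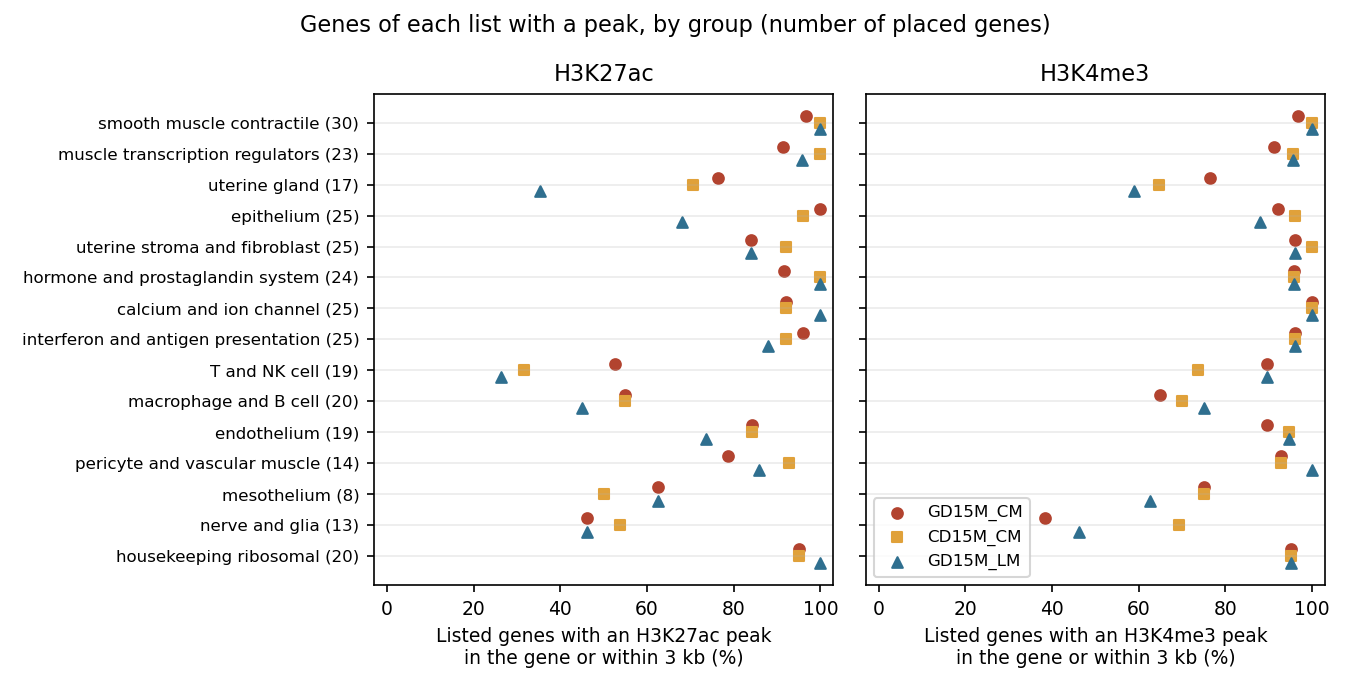
Percentage of the genes of each of 15 lists (number of placed genes in brackets) that had an H3K27ac peak (left) or H3K4me3 peak (right) in the gene or within 3 kb, in GD15M_CM, CD15M_CM and GD15M_LM. The gland list has H3K27ac at 13, 12 and 6 of 17 genes and the epithelium list at 25, 24 and 17 of 25, in that order of groups.

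Lists of other cell types had regions at 0 to 2 genes each. Beside 9.96% of all protein-coding genes, lists of 8 to 25 genes are too short for such counts to show a depletion. The interferon and antigen presentation list had a region at 0 of 25 genes, although 20 of these had a peak of all 3 lists, and no region was found at 14 pericyte, 8 mesothelium or 13 nerve and glia genes. The T and NK cell list had 1 of 19, TCF7, and the macrophage and B cell list 1 of 20, the integrin gene ITGAM. Like the 6 gland and epithelial genes above, ITGAM had no longitudinal H3K27ac peak in the gene or within 3 kb. In the endothelium list 2 of 19 genes (10.5%, near the share of protein-coding genes) had a region and no longitudinal H3K27ac peak. These were ERG, an ETS factor of endothelium (fold 4.67, 258 kb from a longitudinal peak), and PROX1, the lymphatic endothelial homeodomain factor (fold 4.58, 192 kb). At PROX1 the H3K4me3 percentiles were 69.7, 71.4 and 58.0. Ribosomal protein genes, listed as a housekeeping reference, had regions at 4 of 20 (20.0%), namely RPL3, RPL5, RPL11 and RPS3, each with a longitudinal peak within 3 kb. A share near 20.0% was therefore found in muscle, epithelium and housekeeping lists alike. Several of the low counts rest on the threshold. With a fold of at least 3, regions were found at 6 interferon and antigen presentation, 4 pericyte, 8 endothelium, 3 nerve and glia and 0 mesothelium genes, and with a window of 10 kb around the gene at 5 of the interferon list.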

How the data were processed

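CUT&Tag libraries of H3K4me3, H3K27ac and IgG were made from 2 gilts in each of 3 groups, and all 18 libraries were assigned from their titles. Per the labels, the authors mapped reads with BWA 0.7.17-r1188, filtered them with SAMtools 1.9 and Picard 2.8.3, and called peaks on the pooled replicates of each mark with MACS2 2.2.6 (Sscrofa11.1). The 6 deposited lists give the position of each peak, its fold enrichment (a ratio over IgG) and its −log10 p and −log10 q as the authors' MACS2 run wrote them. The headers of the −log10 columns were unreadable, so these were identified by the MACS2 column order; −log10 p served only for rankings named as such, and −log10 q was not used. The authors used IgG as control and normalized signal tracks with bamCompare of deepTools, which are not used here. How MACS2 scaled the pooled mark and IgG reads for the fold enrichment is not given in the sources used here. Read numbers per library, which the study lists, are not used here, and the lists give no read count per peak.

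Overlaps, distances, 95% Wilson intervals and percentiles by fold enrichment within a list were computed with Python 3.11.15, pandas 2.3.3 and NumPy 2.4.6, and plots were drawn with Matplotlib 3.10.9. An overlap was at least 1 bp. The overlap, distance and window code was tested on simulated data. Genes were the 28073 RefSeq genes on chromosomes 1 to 18 and X, without strand, and a gene was given the peaks in it or within 3 kb. A peak within 3 kb of either end of any gene was placed at a gene end. A region is named by its nearest gene. Strict H3K4me3 peaks, used as an alternative, had a −log10 p of at least 10 and a fold of at least 5.

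The text names the 10 regions of highest fold, the genes with most regions, the listed genes with a region, the 5 strongest regions of each H3K4me3 pattern and the regions at the threshold. Genes chosen otherwise are said to be, and some genes that this rule names are not reported here. The regions, the 15 gene lists and the alternatives were chosen with earlier results of these data known. Because the lists pool gilts, no test across samples was made. RNA-seq data and differential regions were not analysed here, and no sequence is shown.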

Additional observations from a re-analysis of the deposited data

How the results depend on the processing

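The number of regions was 10261 with a fold of at least 3, 922 with a fold of at least 5, 1393 with a fold of at least 4 in cyclic muscle as well, and 2371 after joining peaks less than 1 kb apart. The share at gene ends was 27.2% with a fold of at least 3, 18.2% with no longitudinal peak within 1 kb, 20.9% with protein-coding genes only, 10.3% with a window of 1 kb and 49.0% with a window of 10 kb. The H3K4me3 shares are given for GD15M_CM, CD15M_CM and GD15M_LM, and then for both circular groups without GD15M_LM. They were 23.4, 25.9, 17.8 and 5.26% with a fold of at least 3, and 37.3, 35.8, 22.1 and 11.0% with a fold of at least 5. They were 23.1, 23.5, 16.2 and 5.64% when H3K4me3 had to cover 50% of the region, 33.9, 35.3, 27.1 and 6.07% with an H3K4me3 peak within 1 kb, and 16.6, 17.3, 13.1 and 3.62% with strict H3K4me3 peaks. With no longitudinal peak within 1 kb the first 3 were 22.1, 22.5 and 12.2%. In the interval of fold 4 to under 5, chosen after seeing the data, the shares that moved were 25.9% in GD15M_CM, 27.6% in CD15M_CM and 5.86% in circular muscle only. Genes with a region numbered 5203 with a fold of at least 3 and 713 with a fold of at least 5. Of the 15 gene lists, those whose counts changed by over 1.5 times with a fold of at least 3 (chosen after seeing the data) had more genes with a region, for example 14 in the epithelium, 13 in the hormone and 9 in the ribosomal list. With no longitudinal peak within 1 kb, the muscle regulator, stroma and calcium lists had 2, 1 and 3. Ranked by −log10 p, the median percentile was 72.2 in GD15M_CM and 47.0 in CD15M_CM. The sign of each difference from the peaks in all 3 lists (position at gene ends, the 3 H3K4me3 shares and the circular-only share) was the same under every alternative run. No paired analysis was possible because each list pools both gilts of its group, and for the same reason neither gilt could be left out. The depth behind a peak is unknown from the lists.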

Other observations

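Further protein-coding genes with a circular-muscle-only region and no longitudinal H3K27ac peak within 3 kb were picked from the 87 after their values had been seen, and are given as values. RBM47, an RNA-binding protein of epithelia, had 3 regions with a highest H3K27ac fold of 6.23, and OVOL2, a zinc finger factor of epithelial identity, had 1 of 5.18. The strongest H3K4me3 peak at RBM47 had a percentile of 94.6 in GD15M_CM, 83.8 in CD15M_CM and 53.4 in GD15M_LM, and at OVOL2 81.4, 72.9 and 30.2. TFF3, a trefoil peptide of mucous epithelia, had a region of fold 4.09 and no H3K4me3 peak in any group. Developmental homeobox genes were PAX2 with 2 regions (highest fold 5.37), MSX2 with 2 (5.05) and DLX6 with 3 (4.59). Their H3K4me3 percentiles in GD15M_LM were 56.4, 54.1 and 46.6, beside 78.8, 75.3 and 74.1 in GD15M_CM. The metallothionein gene MT1A had 3 regions (highest fold 5.06) and the interferon-induced gene OAS1 had 2 (4.58).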
